A study of Mus musculus with 11 samples.

Results

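The lymph nodes (LN) of 2 knock-in mice (KI, mice 5 and 6), in which BCL2 was placed at the immunoglobulin kappa light chain locus, were compared with those of 2 wild-type mice (Wt, mice 1 and 2). Members were chosen by label, with earlier results of these data known. This gave 4 of the 11 libraries of the series, and the comparison covered all 10885 genes of the deposited table. The other libraries used here were LN of 2 mice whose BCL2 transgene runs from the heavy chain 3' regulatory region (Tg, mice 3 and 4) and spleen of Wt mice 1 and 2 and KI mice 5 and 6. All of these mice had received sheep red blood cells into the peritoneum, 3 doses over 3 months, and tissue was collected 1 month after the last dose. RNA came from dissociated whole-tissue cells, 1 library per mouse and tissue. The labels name the insertion only as Igk-BCL2. Age, strain, zygosity and which lymph nodes were taken are not given in the sources used here, and both BCL2 models direct the gene to B lineage cells while the libraries hold every cell of the node. The labels give separate mice but nothing on litters or handling days, so the p-values below measure only the spread between these libraries.

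BCL2 is an outer mitochondrial membrane protein that blocks the release of apoptotic factors, and its partners in the family either share that role or oppose it. In a lymph node, B cells that meet antigen can enter germinal centres, where they divide, mutate their antibody genes and are selected by T follicular helper cells; those with weak receptors die by apoptosis. Some leave as plasma cells, which shut down much of the B cell programme and expand the endoplasmic reticulum (ER) to secrete antibody. Each B cell makes 1 heavy chain with a light chain of the kappa or the lambda type, and in the mouse most cells use kappa.

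Recovered depth in LN was 11128568 to 21067988 reads over the genes of the table. Values below are the authors' normalised signal, that is, reads divided by 1 factor per library, and they are given in the order Wt mouse 1 and 2, then KI mouse 5 and 6. Differences are in log2(signal + 1), with the standard error of the limma fit and a Benjamini-Hochberg adjusted p, and a gene was called at an adjusted p under 0.05. KI mouse 6 stood apart from all other libraries in that it held almost no kappa transcripts, which is described with the light chains. Between replicates, log2 differences had an SD of 0.918 in KI against 0.493 in Wt over all genes, and 0.351 against 0.477 without immunoglobulin genes. Wt mouse 1 was female by Xist and the other 5 LN libraries were male, so sex differs within Wt and partly between the groups. Heat shock transcripts varied within groups: Hspa1a was 2271 and 1833 in Wt and 4822 and 463 in KI, and limma called 0 of 16 heat shock genes (1 at an unadjusted p under 0.05, 0 by edgeR or DESeq2). A cell type with fewer cells in the node and one with less RNA per cell cannot be told apart in these data.

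The targeted gene was read first. Bcl2 was 2338 and 2716 in Wt and 1246 and 1664 in KI, against 2065 and 3171 in Tg, so both KI libraries lay below both Wt libraries, as in 34.8% of all genes. The difference of -0.81 ± 0.23 was not called (limma adjusted p = 0.0503), and it lay between -1.02 and -0.60 when 1 library was left out. This value sat at the threshold. It was called without KI mouse 6 (adjusted p = 0.0426), Tg mouse 3 (0.0128) or Tg mouse 4 (0.0125), from the 4 Wt and KI libraries alone (0.0126), from all 11 libraries (0.0152), with weights per genotype (0.0249), with quantile scaling (0.0397) and with DESeq2 (0.00717). It was not called without KI mouse 5 (0.207), Wt mouse 1 (0.114) or Wt mouse 2 (0.209), with edgeR (0.0612), limma-voom (0.0585) or TMM (0.0559), or when scaled without immunoglobulin and haemoglobin genes (0.0744). Against Tg the KI libraries were -0.83 ± 0.23 (limma adjusted p = 0.0473). These are reads of the endogenous mouse row. Whether reads of the inserted copy would be counted there, and its species, are not given in the sources used here.

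Over all genes, limma called 2215 of 10885 in KI against Wt, 20.3% of those tested: 1224 were higher (11.2%) and 991 lower (9.1%). Of the called genes 1024 differed more than 2-fold, 686 of them higher, and in all 2215 the 2 KI libraries lay on one side of the 2 Wt libraries, while in 33.2% of all genes the groups overlapped. The median over all genes was -0.02. Scaling without immunoglobulin and haemoglobin genes moved that median by 0.13 and gave 1676 higher and 626 lower, while quantile scaling gave 1068 higher and 1090 lower, so small decreases shared by many genes depend on the scaling. The total also rested on each library: it was 1024 without KI mouse 5, 1409 without KI mouse 6, 1170 without Wt mouse 1 and 1003 without Wt mouse 2. Counts for a gene group without 1 of these libraries are given below in that order, for the direction named, where 1 of them differs by more than 1.5 times. Where a group had more calls in 1 direction, the few calls in the other were often lost without 1 library.

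All 10 genes with the largest gain of mean signal encoded antibody chains or Jchain, which joins them. Not all of these were called: Igkc and Ighg1 were not, and Igkc gained in KI mouse 5 only. Together 192 immunoglobulin genes made up 0.662% and 0.751% of all signal in Wt, 9.46% and 6.77% in KI, with 0.875% and 0.823% in Tg. Summed signal over the 88 measured heavy chain V segments, which encode the antigen-binding part of the heavy chain, was 7958 and 9268 in Wt and 142432 and 115654 in KI. Of these 88 segments 74 were called higher and 0 lower, against 11.2% higher over all genes, and in 87 both KI libraries lay above both Wt libraries, as they did in 32% of all genes. The median segment was 3.67 higher. Ighv1-81 held the largest share of heavy V signal in both KI libraries, 9.73% and 9.17%. Its signal was 85.5 and 140.0 in Wt and 13863 and 10608 in KI, a difference of 6.78 ± 0.24 (limma adjusted p = 1.31e-05). The 10 most abundant segments together held 43.5% and 45.3% of heavy V signal in KI and 40.9% and 39.1% in Wt, so the increase was spread over many segments and Ighv1-81 was the leading one among them. V segments resemble one another, so the split of reads between near-identical segments is uncertain. 

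**Figure D1:**
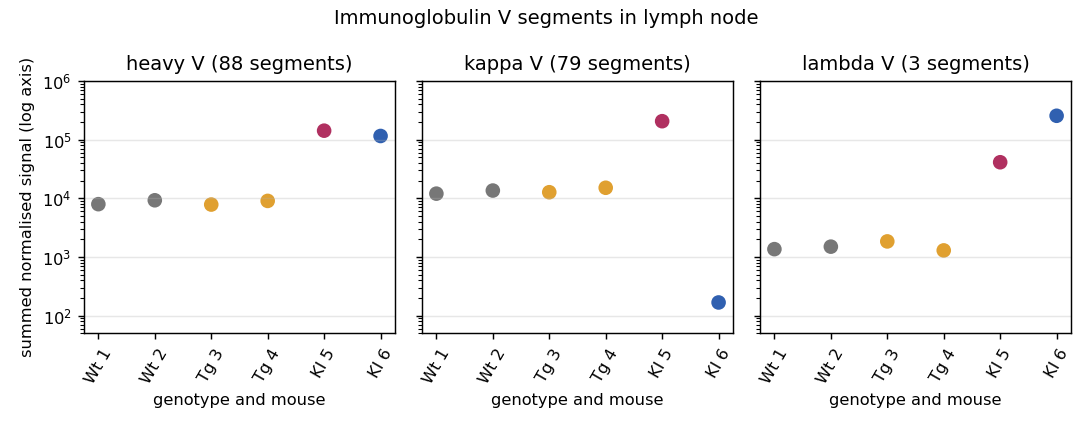
The plot gives the summed normalised signal (log axis) of heavy, kappa and lambda V segments in each of the 6 LN libraries, 1 point per library. Both KI points lie above the others for heavy and lambda V, while for kappa V KI mouse 5 is the highest and KI mouse 6 the lowest, at 168.

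The makeup of heavy chain constant regions, which set the antibody class, differed as well. IgG2c and IgG2b are switched classes, while IgM and IgD are the classes of unswitched B cells. Ighg2c was 3646 and 4092 in Wt and 272354 and 206815 in KI and rose by 5.94 ± 0.38 (limma adjusted p = 7.85e-04). Ighg2b was 4444 and 6555 in Wt and 318201 and 156168 in KI, higher by 5.37 ± 0.36 (limma adjusted p = 5.02e-04). As shares of all heavy constant signal, Ighg2c went from 5.16% and 5.10% in Wt to 31.8% and 34.8% in KI, and Ighg2b from 6.29% and 8.17% to 37.2% and 26.3%. Ighm held 45.6% and 48.2% in Wt and 9.67% and 12.8% in KI, although its own signal rose by 1.17 ± 0.16 (limma adjusted p = 0.00227). Igha, the mucosal class, rose by 2.80 ± 0.25 (limma adjusted p = 4.41e-04), with shares of 11.3% and 16.7% in Wt and 9.26% and 11% in KI. Ighd was not called at -0.55 ± 0.17 (limma adjusted p = 0.0529), and its share was 14.6% and 14.2% in Wt and 0.953% and 1.13% in KI. Ighg1 was 10617 and 4229 in Wt and 84316 and 49399 in KI, with 3.27 ± 0.91 not called (limma adjusted p = 0.103), and the Wt libraries were far from each other. The shares are ratios within a library and were not tested; reads shared by Ighg2b and Ighg2c leave the split between them uncertain.

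**Figure D2:**
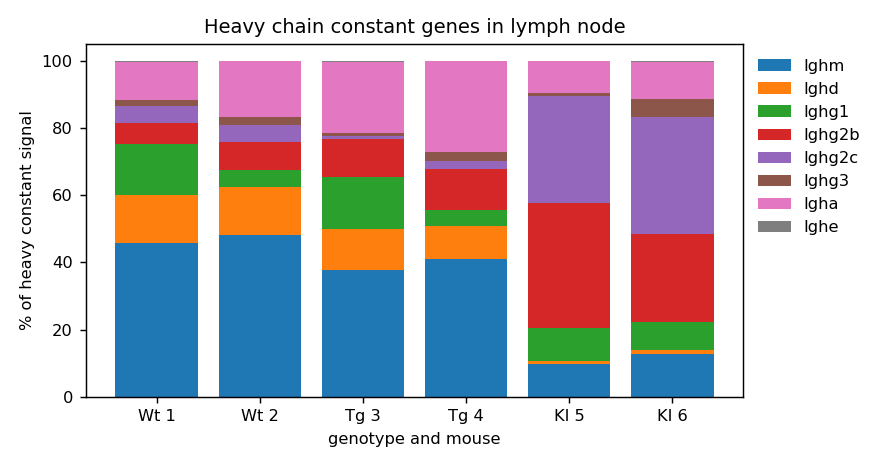
Stacked bars give each heavy constant gene's percent of the heavy constant signal in each LN library. Ighm is the largest class in the 4 Wt and Tg libraries, and Ighg2b and Ighg2c together hold most of the bar in both KI libraries.

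Light chains set the KI libraries apart from each other. Of light chain signal, kappa genes held 88.6% and 89.0% in Wt, 87.0% and 91.7% in Tg and 88.8% in KI mouse 5, but 0.950% in KI mouse 6. The spleens of the same mice gave 85.7% for KI mouse 5 and 1.70% for KI mouse 6. The constant region Igkc was 22589 and 26307 in Wt and 419339 and 4235 in KI. Signal over the 79 measured kappa V segments summed to 12025 and 13578 in Wt, 206681 in KI mouse 5 and 168 in KI mouse 6, where 38 segments were at 0 and 67 had at most 3 reads. All 5 kappa J segments, which are joined to a V segment in a functional gene, were at 0 in KI mouse 6. With libraries this far apart, limma called 0 of 79 kappa V segments (0 at an unadjusted p under 0.05, 0 by edgeR, 1 by DESeq2), and Igkc was not called (log2 difference 0.79 ± 2.64, limma adjusted p = 0.881). Lambda constant genes summed to 3174 and 3521 in Wt, 37566 in KI mouse 5 and 203188 in KI mouse 6, and the 3 lambda V segments to 1361 and 1501, then 41240 and 255641. Both KI libraries therefore lay above both Wt libraries for lambda. Iglv2, 1 of these V segments, rose by 6.14 ± 0.76 (limma adjusted p = 0.0178), a call that was lost without Tg mouse 3, Tg mouse 4, Wt mouse 1 or Wt mouse 2 (highest adjusted p = 0.109). The labels describe both KI mice alike.

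Genes that define plasma cells rose in both KI libraries. Of 23 measured plasma cell genes 19 were called higher and 0 lower, with a median of 2.26 beside -0.02 over all genes, and 18 or 19 were higher whichever library was left out. Jchain, which links IgM and IgA chains into polymers, was 2972 and 3699.8 in Wt and 122649.5 and 128795 in KI, a rise of 5.24 ± 0.20 (limma adjusted p = 1.31e-05). Sdc1, the surface proteoglycan CD138 used to sort plasma cells, was 163 and 207 in Wt and 2915 and 3760.4 in KI (higher by 4.17 ± 0.19, limma adjusted p = 2.59e-05). Tnfrsf17, the survival receptor BCMA, was 9.68 and 7.66 in Wt and 117 and 124 in KI and rose by 3.66 ± 0.47 (limma adjusted p = 0.00183). These values place the KI libraries about alike, while both Wt and Tg libraries were low: Sdc1 was 252 and 217 in Tg. Not all 23 genes rose: Irf4 was not called, and in 2 genes both KI libraries lay below both Wt libraries, as in 34.8% of all genes. The transcription factors Xbp1, Prdm1 and Bhlha15 rose. Xbp1, which drives expansion of the secretory pathway, was 1730.3 and 2197 in Wt and 10174 and 8399 in KI and rose by 2.24 ± 0.16 (limma adjusted p = 1.11e-04). Prdm1, encoding Blimp-1, which represses the B cell programme, was 106 and 218 in Wt and 721 and 799 in KI, with 2.31 ± 0.34 (limma adjusted p = 0.00502). Bhlha15 (Mist1), a factor of secretory cells, rose by 2.96 ± 0.24 from 72.6 and 109 to 668 and 729.8 (limma adjusted p = 2.35e-04). Ell2, an elongation factor that favours the secreted form of heavy chain transcripts, rose by 2.15 ± 0.15 (limma adjusted p = 1.25e-04).

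The machinery that makes and folds secreted proteins rose in part. Of 23 ER chaperones and folding enzymes 16 were called higher and 0 lower (median 0.87), and of 20 genes of ER-associated degradation 9 were higher and 0 lower (median 0.43). Creld2, an ER protein induced by misfolding, was 664 and 812 in Wt and 3078 and 2895 in KI and rose by 2.02 ± 0.13 (limma adjusted p = 1.09e-04). Txndc5, a disulfide isomerase, rose by 2.09 ± 0.14 from 1874 and 2089 to 8609 and 8289 (limma adjusted p = 1.11e-04). Hspa5 (BiP), the main ER chaperone, was 12367 and 14947 in Wt and 19069 and 21483 in KI, a smaller rise of 0.57 ± 0.15 (limma adjusted p = 0.0296); this call was lost without KI mouse 5, KI mouse 6, Wt mouse 1 or Wt mouse 2 (highest adjusted p = 0.192). Calr and Canx, the lectin chaperones, were not called at 0.26 ± 0.17 and 0.23 ± 0.12. Derl3, a channel component for export of misfolded proteins, was 139 and 221 in Wt and 2737 and 2651 in KI (higher by 3.94 ± 0.21, limma adjusted p = 7.02e-05), and its partners Sel1l and Syvn1 rose by 1.57 ± 0.14 and 1.38 ± 0.15 (limma adjusted p = 3.79e-04 and 8.35e-04). The degradation count was 5, 6, 5 and 6 without 1 library. In ER entry, 8 of 24 translocation and signal peptidase genes were higher and 1 lower (6, 5, 6 and 5 higher without 1 library), led by Tram2, a translocon partner, at 2.03 ± 0.15 (limma adjusted p = 1.50e-04). N-glycosylation gave 4 of 23 higher and 0 lower, and vesicle coats and cargo receptors 5 of 28 and 0, beside 11.2% higher over all genes. Those counts were 2, 3, 2 and 2 for both groups without 1 library, and 8 for vesicle coats without either Tg library. The cargo receptor Lman1 rose by 1.4 ± 0.13 (limma adjusted p = 3.51e-04).

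Sensors and regulators of the unfolded protein response moved in both directions. Shares over all genes were 11.2% called higher and 9.1% called lower. Of 12 such genes 6 were called higher and 1 lower, in each LN library omission too. Ern1 (IRE1), the ER sensor that splices Xbp1 mRNA, was 290.3 and 286 in Wt and 1913 and 2257 in KI, a rise of 2.85 ± 0.18 (limma adjusted p = 9.15e-05). Creb3l2, a membrane-bound transcription factor of secretory cells, rose by 2.34 ± 0.16, and the sensors Eif2ak3 (PERK) and Atf6 by 1.10 ± 0.16 and 1.03 ± 0.17 (limma adjusted p = 1.09e-04, 0.00276 and 0.005). The single member that fell was Ppp1r15a (GADD34), which restores translation after PERK acts. Its signal was 9709 and 13592 in Wt and 3998 and 3148 in KI, and it fell by 1.69 ± 0.27 (limma adjusted p = 0.00804). Among 18 genes of the amino acid response of the stress transcription factor ATF4, Atf4 itself included, 8 were higher and 0 lower. Fewer were higher without any 1 Wt or KI library. Asns, which makes asparagine, was 30.6 and 55.8 in Wt and 596 and 823 in KI, a rise of 4.05 ± 0.35 (limma adjusted p = 3.04e-04). Chac1, which degrades glutathione, was 3.23 and 13.1 in Wt and 112 and 97.7 in KI and rose by 3.77 ± 0.64 (limma adjusted p = 0.0057). Atf4 itself was not called at -0.33 ± 0.14, and of 19 tRNA synthetases 2 were higher and 0 lower (2, 0, 0 and 2 higher without 1 library, and 4 without either Tg library).

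The ER stress response element, CCAAT and CCACG with 9 bases of any kind between them, searched on both strands, was looked for in RefSeq promoters (250 bases before to 50 after the gene start, build GRCm38.p6), which matched 8496 genes of the table. It was present in 17 of them (0.2%). Among ER folding genes it was in 6 of the 14 called higher that had a promoter and in 2 of the 7 not called, which were Calr and Canx. In the degradation group it was in 2 of 9 called higher and 0 of 6 not called. The 250 bases upstream of 3 called genes are shown because they carry the element at different strengths of change; capitals mark it, as spelled or as its reverse complement. The Hspa5 window lies at chr2:34771840-34772089 (plus strand), that of Creld2 at chr15:88819396-88819645 (plus strand) and that of Derl3 at chr10:75893148-75893397 (plus strand).
Hspa5: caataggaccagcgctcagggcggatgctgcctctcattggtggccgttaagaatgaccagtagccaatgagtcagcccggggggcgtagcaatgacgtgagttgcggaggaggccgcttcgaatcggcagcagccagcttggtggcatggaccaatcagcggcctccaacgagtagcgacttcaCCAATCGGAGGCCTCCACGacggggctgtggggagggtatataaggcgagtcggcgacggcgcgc
Creld2: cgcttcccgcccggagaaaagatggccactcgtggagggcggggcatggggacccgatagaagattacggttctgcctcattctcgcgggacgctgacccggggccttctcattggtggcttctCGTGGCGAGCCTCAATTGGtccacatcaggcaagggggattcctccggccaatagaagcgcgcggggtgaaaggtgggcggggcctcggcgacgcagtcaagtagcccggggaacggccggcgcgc
Derl3: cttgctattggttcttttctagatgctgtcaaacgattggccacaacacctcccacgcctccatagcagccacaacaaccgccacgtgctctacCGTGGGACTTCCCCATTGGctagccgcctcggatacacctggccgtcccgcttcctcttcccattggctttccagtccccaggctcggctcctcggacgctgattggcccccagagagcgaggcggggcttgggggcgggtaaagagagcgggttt
The element begins at -65 in Hspa5, -126 in Creld2 and -156 in Derl3, counted from the gene start. A match is a description of these letters and shows no binding.

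Germinal centre genes rose together. Counts here stand beside 11.2% called higher over all genes. Of 18 measured 14 were called higher and 0 lower, with a median of 2.42. Mybl1, a transcription factor of dividing germinal centre B cells, was 158 and 79.9 in Wt and 2803 and 2236 in KI, with 412 and 353 in Tg, a rise of 4.47 ± 0.31 (limma adjusted p = 3.34e-04). For this gene the KI libraries were high, the Tg libraries intermediate and the Wt libraries low. S1pr2, a receptor that holds B cells in the follicle centre, rose by 3.12 ± 0.20, and Rgs13, a regulator of chemokine receptor signals, by 3.97 ± 0.27 (limma adjusted p = 1.11e-04 and 1.09e-04). Bcl6, the repressor required for germinal centres, was 1371 and 1502 in Wt and 3989.6 and 3293 in KI, with a rise of 1.34 ± 0.16 (limma adjusted p = 0.00148). Nuggc, a nuclear GTPase of these cells, was 214 and 144 in Wt and 3366 and 2979 in KI and rose by 4.16 ± 0.21 (limma adjusted p = 4.30e-05). Of 19 genes of somatic mutation and class switching 6 were higher and 0 lower (4, 6, 6 and 4 without 1 library), among them Hmces, which shields abasic sites in DNA, at 1.49 ± 0.19 (limma adjusted p = 0.00184).

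General B cell genes rose in part, and those of resting follicular B cells fell in part. Shares over all genes were 11.2% called higher and 9.1% called lower. Of 21 pan B cell genes 9 were higher and 1 lower, at a median of 0.45 (3, 9, 4 and 5 higher without 1 library). Pou2af1, a coactivator needed for germinal centres, was 3720.2 and 3596 in Wt and 9495 and 6867 in KI and rose by 1.14 ± 0.16 (limma adjusted p = 0.0025). Of 22 genes of B cell receptor signalling 11 were higher and 0 lower (4, 11, 4 and 5 without 1 library), with the inhibitory Fc receptor Fcgr2b at 1.16 ± 0.12 and the kinase Lyn at 0.78 ± 0.11 (limma adjusted p = 6.50e-04 and 0.00261). In contrast, 0 of 13 follicular B cell genes were higher and 6 lower (2, 4, 5 and 2 without 1 library). The called members include Ccr7 and Klf2, which are also counted among the homing and quiescence genes below. Ccr7 is counted with mature dendritic cells too, so these calls are not specific to B cells. Fcer2a (CD23), a receptor of resting follicular B cells, was 6807 and 7161 in Wt and 3564 and 2535 in KI, and it fell by 1.22 ± 0.18 (limma adjusted p = 0.00367). Ccr6, a chemokine receptor of naive and memory B cells, fell by 1.28 ± 0.23 (limma adjusted p = 0.00765), lost without Wt mouse 2 (adjusted p = 0.0603). Cd86, a costimulatory ligand of activated B cells, was 364 and 393 in Wt and 1099 and 934 in KI and rose by 1.42 ± 0.16 (limma adjusted p = 0.00114). Memory B cell genes gave 3 higher and 3 lower of 12, but 0, 2, 0 and 2 higher and 2, 2, 3 and 1 lower without 1 library, and 5 higher without either Tg library. Class II antigen presentation genes, which B cells and dendritic cells share, gave 1 higher and 0 lower of 12 (0 higher without any 1 Wt or KI library) and a median of 0.03.

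**Figure D3:**
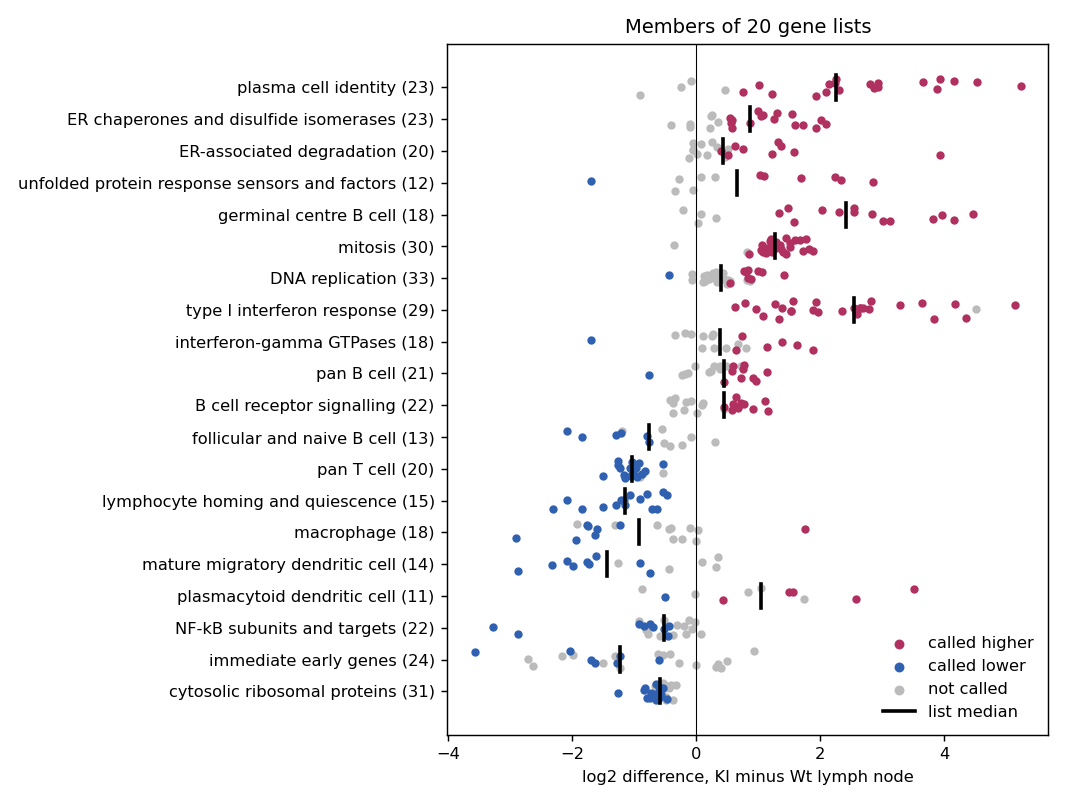
Each point is a gene of 1 of 20 groups, placed by its log2 difference between KI and Wt LN; colours mark genes called higher, called lower or not called, black bars the group median, and brackets the genes measured. Plasma cell, germinal centre, interferon and mitosis genes lie to the right and T cell, homing and mature dendritic cell genes to the left.

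Cell division genes were higher in KI LN. Counts here stand beside 11.2% called higher over all genes. Of 30 genes of mitosis 28 were called higher and 0 lower, with a median of 1.27 (11, 25, 19 and 15 higher without 1 library). Mki67, a marker of cycling cells, was 1203 and 1432 in Wt and 4818 and 3639.8 in KI, and it rose by 1.67 ± 0.17 (limma adjusted p = 5.71e-04). Cenpe, a kinetochore motor, was 173 and 187 in Wt and 704 and 576 in KI, higher by 1.82 ± 0.27 (limma adjusted p = 0.00342). KI mouse 5 was the higher of the 2 KI libraries in all 30 genes. Of 33 genes of DNA synthesis 9 were higher and 1 lower, at a median of 0.40 (1, 7, 3 and 1 higher without 1 library). Rrm2, the ribonucleotide reductase subunit made in S phase, rose by 1.0 ± 0.16 from 334 and 333 to 732 and 609 (limma adjusted p = 0.004). The cell cycle homology region, spelled TTTGAA or TTCGAA on either strand, was in 1427 of 8496 genes with a promoter (16.8%), in 18 of the 23 mitosis genes called higher that had a promoter and in both of those not called. These are short letters that occur often. The upstream window of Mki67 at chr7:135716380-135716629 (minus strand) is shown for its pair of copies, in capitals, the first at -116.
Mki67: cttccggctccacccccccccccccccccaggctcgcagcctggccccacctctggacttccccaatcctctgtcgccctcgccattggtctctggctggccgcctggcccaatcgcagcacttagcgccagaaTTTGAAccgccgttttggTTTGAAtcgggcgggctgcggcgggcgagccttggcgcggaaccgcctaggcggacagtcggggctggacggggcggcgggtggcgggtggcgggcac

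Interferon-stimulated genes rose nearly throughout. Of 29 genes of the type I response 28 were called higher and 0 lower, with a median of 2.56, and 22 to 28 were higher without any 1 library. Oas2, an enzyme that activates RNA decay on sensing double-stranded RNA, was 271 and 118 in Wt and 2520.0 and 2609 in KI and rose by 3.83 ± 0.46 (limma adjusted p = 0.00588). Oasl2, a relative of it, was 109.7 and 50.3 in Wt and 1220.5 and 1504 in KI, a rise of 4.17 ± 0.44 (limma adjusted p = 0.00209). Irf7, the factor that amplifies interferon production, was 1140.1 and 717 in Wt and 4427 and 6664 in KI, higher by 2.59 ± 0.28 (limma adjusted p = 0.00272). In 28 of the 29 genes Wt mouse 1, the female, lay above Wt mouse 2, and Tg was in the Wt range, with 943 and 814 for Irf7. Ifit1, which binds foreign RNA caps, was 163 and 45.9 in Wt and 891 and 1358 in KI and rose by 3.65 ± 0.65 (limma adjusted p = 0.018), a call lost without Tg mouse 3 or Tg mouse 4 (highest adjusted p = 0.0754). The ubiquitin-like modifier Isg15 was 181 and 63.4 in Wt and 502 and 847 in KI, a rise of 2.59 ± 0.51 (limma adjusted p = 0.0189), lost without KI mouse 6, Tg mouse 3 or Tg mouse 4 (highest adjusted p = 0.0853). In 27 of the 29 genes KI mouse 6 was the higher KI library, the reverse of the mitotic genes. The 1 gene not called, Ifit3, was 4.51 ± 0.95 (limma adjusted p = 0.0505); reads may be split between it and its near copy Ifit3b. The signal transducers Stat2 and Irf9 rose by 1.08 ± 0.12 and 0.78 ± 0.12 (limma adjusted p = 0.001 and 0.00394).

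Genes induced mainly by interferon gamma gave 6 of 18 higher and 1 lower (5, 2, 5 and 2 higher without 1 library). Iigp1, a GTPase acting on parasite vacuoles, rose by 1.89 ± 0.31 from 249.9 and 172 to 577 and 1025 (limma adjusted p = 0.00589). Class I antigen presentation, another interferon-responsive group, gave 0 of 16 called by limma (1 at an unadjusted p under 0.05, 0 by edgeR, 1 by DESeq2) and a median of -0.10. Markers of plasmacytoid dendritic cells, which produce type I interferon, were 5 higher and 1 lower of 11 (6, 3, 3 and 2 higher without 1 library). Shares over all genes were 11.2% called higher and 9.1% called lower. Irf7 and Bst2, called higher in this group, are also in the type I interferon list above, so they are not separate evidence of a cell type. Tcf4, the lineage factor of plasmacytoid dendritic cells and also a gene of B cells, was 1143 and 1289.8 in Wt and 3597 and 3308 in KI. It rose by 1.51 ± 0.12 (limma adjusted p = 2.13e-04). Siglech, a surface marker of these cells, was 332 and 132 in Wt and 320.5 and 1555 in KI and was not called (limma adjusted p = 0.323), with only KI mouse 6 above Wt. The part of these cells in the interferon result was not tested.

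The interferon-stimulated response element, GAAA and GAAA with 2 bases of any kind between them on both strands, was in 348 of 8496 genes with a promoter (4.10%). It was in 12 of the 21 called type I genes with a promoter (57.1%) and in Ifit3. The windows of Ifit1 (chr19:34640639-34640888, plus strand) and Isg15 (chr4:156200819-156201068, minus strand) are shown for their 2 and 3 copies, in capitals, which overlap in Isg15.
Ifit1: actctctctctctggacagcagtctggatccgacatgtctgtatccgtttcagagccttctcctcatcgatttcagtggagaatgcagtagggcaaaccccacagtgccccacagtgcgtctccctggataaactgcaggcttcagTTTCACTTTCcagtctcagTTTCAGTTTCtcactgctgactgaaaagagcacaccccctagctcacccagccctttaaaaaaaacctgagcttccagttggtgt
Isg15: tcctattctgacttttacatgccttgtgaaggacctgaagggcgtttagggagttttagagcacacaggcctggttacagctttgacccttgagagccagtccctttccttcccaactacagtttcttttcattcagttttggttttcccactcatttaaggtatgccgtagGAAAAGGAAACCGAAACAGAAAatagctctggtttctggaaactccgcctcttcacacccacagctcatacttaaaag
The first copy begins at -104 in Ifit1 and at -78 in Isg15.

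T cell genes fell. The counts below stand beside 11.2% called higher and 9.1% called lower over all genes. The follicular helper, regulatory and cytotoxic groups had few calls, which are not read as a change of those cells. Of 20 pan T cell genes 0 were higher and 18 lower, with a median of -1.03, and 13 to 18 were lower without any 1 library. Lef1, a factor of naive T cells, was 4527 and 4155 in Wt and 1387 and 1674 in KI, and it fell by 1.51 ± 0.14 (limma adjusted p = 3.43e-04). Thy1, a surface glycoprotein of T cells, was 9130.4 and 9387 in Wt and 3263 and 4566 in KI and fell by 1.26 ± 0.18 (limma adjusted p = 0.00261). Cd3e, a subunit of the T cell receptor complex, was 3575 and 3338 in Wt and 1868 and 1797 in KI and fell by 0.91 ± 0.13 (limma adjusted p = 0.00315). The genes for quiescence and homing of naive lymphocytes fell in 15 of 15 cases (5, 10, 10 and 6 without 1 library). Igfbp4, a secreted binding protein that marks naive T cells, was 10714 and 13016 in Wt and 2410.2 and 2378 in KI, so the KI libraries were nearly equal, and it fell by 2.30 ± 0.20 (limma adjusted p = 3.75e-04). Against this, 3 of 11 genes of T follicular helper cells were higher and 1 lower (1, 4, 1 and 2 higher without 1 library). Tox2, a factor of these cells, was 218 and 242 in Wt and 617 and 429 in KI and rose by 1.16 ± 0.20 (limma adjusted p = 0.00585), while Cd40lg, the help signal to B cells, was 568 and 523 in Wt and 213 and 193 in KI and fell by 1.42 ± 0.21 (limma adjusted p = 0.00339). Regulatory T cell genes gave 1 higher and 3 lower of 12, but 0 higher in each case and 2, 1, 4 and 0 lower without 1 library. Cytotoxic and natural killer cell genes gave 1 higher and 4 lower of 17 (0, 0, 0 and 2 higher and 2, 4, 3 and 2 lower without 1 library), with Ctsw, a protease of cytotoxic cells, at -1.28 ± 0.17 (limma adjusted p = 0.00222).

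Among myeloid cells, macrophage genes fell in 7 of 18 cases and rose in 1 (6, 6, 4 and 6 lower without 1 library). The complement genes C1qa, C1qb and C1qc, which tissue macrophages make, gave -1.74 ± 0.28, -1.62 ± 0.26 and -1.76 ± 0.26, all called lower (limma adjusted p = 0.00448, 0.00476 and 0.00348). C1qa was 381 and 217 in Wt and 76.8 and 94.2 in KI. Slc40a1, the iron exporter ferroportin, was 51.6 and 40.5 in Wt and 7.68 and 3.45 in KI, near the floor in KI, and fell by 2.91 ± 0.51 (limma adjusted p = 0.00612). The 1 macrophage-list gene that rose was Apoe, the lipid carrier, from 6823 and 4879 to 21126 and 17872 (higher by 1.75 ± 0.21, limma adjusted p = 0.00149). Genes of mature migratory dendritic cells fell in 9 of 14 cases and rose in 0. Ccl22, a chemokine of these cells, was 819 and 547 in Wt and 68 and 121 in KI, and it fell by 2.87 ± 0.30 (limma adjusted p = 0.00113). Apol7c, a dendritic cell gene, was 1371 and 1109 in Wt and 236 and 254 in KI and fell by 2.33 ± 0.18 (limma adjusted p = 1.84e-04). Aldh1a2, which makes retinoic acid in migratory dendritic cells, was 224 and 364 in Wt and 19.8 and 40.2 in KI and fell by 3.29 ± 0.37 (limma adjusted p = 0.00122). Conventional dendritic cell genes gave 3 higher and 1 lower of 12 (4, 2, 1 and 2 higher and 0, 0, 1 and 0 lower without 1 library). Sirpa, a receptor that marks part of these cells, rose by 1.07 ± 0.15 (limma adjusted p = 0.00261). The myeloid counts stand beside 11.2% of all genes called higher and 9.1% called lower. The few calls among conventional dendritic cell genes are not read as a change of those cells.

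Other cells were checked by their markers. With 11.2% of all genes called higher and 9.1% called lower, the few calls in these groups are not read as changes of those cells. Neutrophil genes gave 0 of 15 called by limma, edgeR or DESeq2 and 0 at an unadjusted p under 0.05, with a summed signal of 202 and 2201 in Wt and 769 and 657 in KI, and 2 were higher without Wt mouse 2. Of stromal markers 5 of 21 were measured, with 0 higher and 2 lower (2, 1, 1 and 1 lower without 1 library, 4 and 3 without Tg mouse 3 or 4); Mfge8, made by follicular dendritic cells and macrophages, was 535 and 514 in Wt and 282 and 294 in KI and fell by 0.86 ± 0.15 (limma adjusted p = 0.0059). The other stromal marker called lower was Cr2, which is also counted among the B cell genes, so neither call is specific to stroma. Pf4 and Ppbp, the platelet chemokines, were at 0 in all 6 LN libraries. Of 18 markers of fat, muscle, skin, pancreas and salivary gland 2 were measured, and the 1 that rose, Bhlha15, is also a plasma cell gene. Erythroid genes gave 1 higher and 2 lower of 11, but 0 higher in each case and 1, 0, 1 and 0 lower without 1 library, and 4 and 3 lower without Tg mouse 3 or 4. Prg2, an eosinophil granule protein that plasma cells can also express, was 48.4 and 33.9 in Wt and 169 and 161 in KI and rose by 2.0 ± 0.33 (limma adjusted p = 0.005).

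NF-kB and immediate early genes, which report recent signalling or handling, fell in part. Counts here stand beside 9.1% called lower over all genes. Of 22 NF-kB subunits and targets 9 were lower and 0 higher, and fewer were lower without any 1 Wt or KI library. Ccl22, called lower here, is also counted with mature dendritic cells above. Nfkb2, a subunit of the pathway's second arm, was 3996 and 4664 in Wt and 2393 and 2420.4 in KI and fell by 0.84 ± 0.14 (limma adjusted p = 0.00497). Tnfaip3 (A20), its feedback inhibitor, was 9464 and 29253 in Wt and 2028 and 1464 in KI; it fell by 3.27 ± 0.61 (limma adjusted p = 0.0342), a call lost without KI mouse 5, KI mouse 6, Tg mouse 3 or Tg mouse 4 (highest adjusted p = 0.118). Of 24 immediate early genes 7 were lower and 0 higher (5, 4, 11 and 5 lower without 1 library). Atf3, a stress-induced repressor, was 293 and 783 in Wt and 48.3 and 32.2 in KI, and it fell by 3.57 ± 0.53 (limma adjusted p = 0.00872). Plk2, a kinase of the same kind of response, was 1495 and 2295 in Wt and 384 and 224 in KI and fell by 2.65 ± 0.34 (limma adjusted p = 0.00602). In several of these genes Wt mouse 2 was well above Wt mouse 1. Fos, the best known immediate early gene, was 6394 and 7627 in Wt and 12592 and 7758 in KI and not called (0.50 ± 0.64, limma adjusted p = 0.657). Whether dissociation or handling time moved with the genotype was not tested, since the labels give neither.

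Genes of growth and translation fell in part. Counts here stand beside 9.1% called lower over all genes. Myc, the growth regulator, was 3096 and 3369 in Wt and 1154 and 1269 in KI, and it fell by 1.42 ± 0.14 (limma adjusted p = 5.73e-04). Of 23 genes of the MYC network and its targets 6 were lower and 1 higher (2, 2, 3 and 1 lower without 1 library). Of 31 ribosomal protein genes 19 were lower and 0 higher at a median of -0.59, but 2, 5, 2 and 4 without 1 library, 8 when scaled without immunoglobulin and haemoglobin genes and 4 after quantile scaling. Rpl3 was 46669.6 and 42403 in Wt and 17566 and 19542 in KI and fell by 1.26 ± 0.14 (limma adjusted p = 0.00105), the largest fall of the 31 genes. The elongation factor Eef1a1 had the largest loss of signal in the table, 218864 and 192899 in Wt and 125603 and 121713 in KI. It fell by 0.73 ± 0.17 (limma adjusted p = 0.0189), a call lost without KI mouse 5, KI mouse 6, Wt mouse 1 or Wt mouse 2 (highest adjusted p = 0.129).

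In the BCL2 family itself, 3 of 9 death-promoting genes and 1 of 7 protective genes were called. Over all genes 20.3% were called, 11.2% higher and 9.1% lower, and groups this small cannot be set apart from those shares. Bmf, a BH3-only protein that binds and blocks BCL2, was 379 and 632 in Wt and 1866 and 1988 in KI and rose by 1.97 ± 0.22 (limma adjusted p = 0.00131). Bcl2l11 (BIM), another of that class, was 1045 and 1459 in Wt and 2489 and 2393 in KI, a rise of 0.98 ± 0.18 (limma adjusted p = 0.00748). Bcl2l14 fell by 1.57 ± 0.32 from 126 and 130.2 to 37.3 and 48.3 (limma adjusted p = 0.0115), lost without KI mouse 5, Wt mouse 1 or Wt mouse 2 (highest adjusted p = 0.0709). So 2 of 9 death-promoting genes were higher and 1 lower. Of 7 protective genes 1 was higher and 0 lower: Bcl2l2 (BCL-W), 72.6 and 97.4 in Wt and 155 and 197 in KI, rose by 1.04 ± 0.29 (limma adjusted p = 0.0371), lost without KI mouse 5, KI mouse 6, Wt mouse 1 or Wt mouse 2 (highest adjusted p = 0.202). Mcl1, on which plasma cells depend, was 10896 and 13197 in Wt and 10915 and 10029.8 in KI and not called (limma adjusted p = 0.489). Among receptors that carry survival signals, 2 of 11 were higher and 4 lower (1, 2, 1 and 1 lower without 1 library). The 2 that rose were receptors for APRIL and BAFF, Tnfrsf17 as given above and Tnfrsf13b (TACI), 1490.0 and 1685 in Wt and 3317 and 3111 in KI, by 1.02 ± 0.13 (limma adjusted p = 0.00181). Fas, the death receptor of germinal centre B cells, was 292 and 224 in Wt and 826 and 708 in KI and rose by 1.58 ± 0.18 (limma adjusted p = 0.00104).

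The largest increases outside the immunoglobulin genes were in genes of varied function. BC018473, a long noncoding RNA in RefSeq, went from 1 and 0 recovered reads in Wt to 827 and 782 in KI, with 2 and 0 in Tg. Its signal was 0.928 and 0 in Wt spleen and 1056 and 966 in KI spleen. St6galnac1, a sialyltransferase that is its neighbour in the RefSeq annotation, had 0 and 1 reads in Wt and 145 and 135 in KI. Both genes, chosen after their values were seen, were thus near 0 in Wt and Tg nodes and alike in both KI mice, and both were called (limma adjusted p = 3.42e-04 and 0.00125). With so few Wt reads their fitted differences depend on the pseudocount and are not given. St6galnac2, a related enzyme on the other side of BC018473, was 32.3 and 25.2 in Wt and 293 and 314 in KI and rose by 3.37 ± 0.30 (limma adjusted p = 3.48e-04), while Jmjd6, a hydroxylase further along, was 1232 and 1359 in Wt and 1438 and 1122 in KI and not called. Among genes with a mean log2 signal of at least 6, Thbd (thrombomodulin), a cofactor of the anticoagulant pathway, was 11.3 and 17.5 in Wt and 718 and 702 in KI, higher by 5.56 ± 0.48 (limma adjusted p = 3.07e-04). Cacna1h, a T-type calcium channel, was 155 and 117 in Wt and 4292 and 4112 in KI and rose by 4.95 ± 0.19 (limma adjusted p = 1.31e-05). Ret, a receptor tyrosine kinase known from the nervous system, was 17.7 and 10.9 in Wt and 472 and 448 in KI, a rise of 4.95 ± 0.31 (limma adjusted p = 9.70e-05). In these 3 genes the KI libraries were close to each other, and Tg lay in between, at 317 and 246 for Cacna1h and 73.6 and 80.2 for Ret. Reln, a secreted matrix protein, was 88.7 and 90.8 in Wt and 1769 and 3720.2 in KI and rose by 4.82 ± 0.33 (limma adjusted p = 2.44e-04). Scn8a, a sodium channel, was 21 and 15.3 in Wt and 586 and 391 in KI, with 80.7 and 105 in Tg, and rose by 4.66 ± 0.32 (limma adjusted p = 1.11e-04). Slpi, a secreted protease inhibitor, was 518 and 356 in Wt and 9784 and 7582 in KI, a rise of 4.32 ± 0.48 (limma adjusted p = 0.00849). Zbtb20, a transcription factor of long-lived plasma cells, was 1259 and 1256 in Wt and 6326 and 5233 in KI and rose by 2.19 ± 0.18 (limma adjusted p = 2.57e-04). At the other end, Tspan9, a membrane scaffold, was 506 and 264 in Wt and 31.8 and 69 in KI and fell by 2.93 ± 0.43 (limma adjusted p = 0.00527). Pdlim4, an actin-binding adaptor, was 545 and 340.2 in Wt and 63.7 and 67.8 in KI and fell by 2.69 ± 0.25 (limma adjusted p = 3.79e-04).

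**Figure D4:**
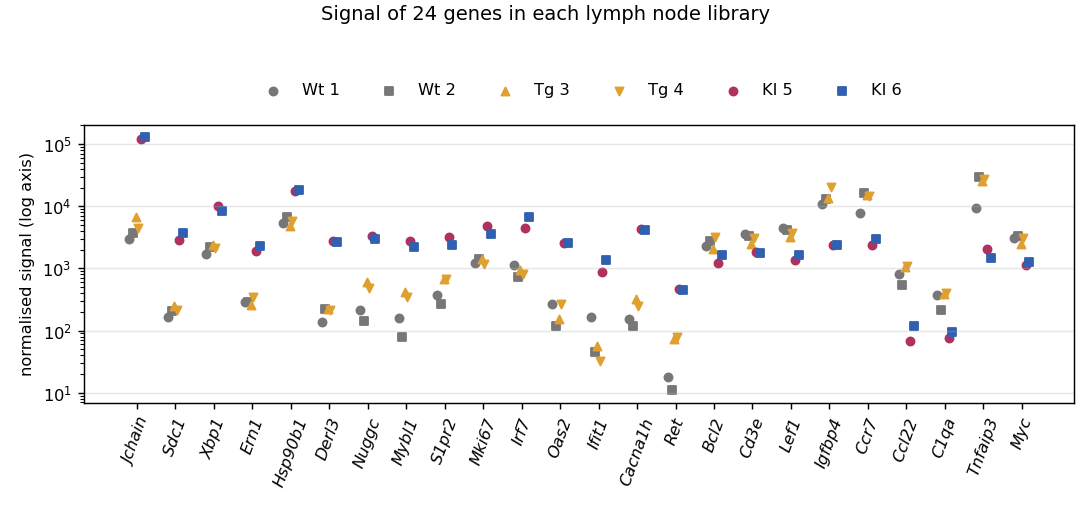
Points give the normalised signal (log axis) of 24 genes in each LN library, by genotype and mouse. The 2 KI points lie close together and apart from Wt for most genes, for example Jchain, Ret and Ccl22, and Tg points lie between them and Wt for Mybl1 and Ret.

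Set against the Tg nodes, KI LN differed in 2171 genes (19.9%), 1212 higher (11.1%) and 959 lower (8.81%). This comparison shares the KI libraries with the one against Wt, so the values are given side by side. Plasma cell genes were 19 higher and 1 lower of 23 against Tg (median 2.0), type I interferon genes 28 and 0 of 29 (median 2.63), and germinal centre genes 14 and 0 of 18, at a median of 1.48 against 2.42 versus Wt. Jchain was 4.53 ± 0.20 higher than in Tg (limma adjusted p = 3.68e-05) and Mybl1 2.71 ± 0.31 (limma adjusted p = 0.00272). Pan T cell genes gave 0 higher and 15 lower of 20, and macrophage genes 1 and 9 of 18. The count against Tg was 949 without KI mouse 5 and 1286 without KI mouse 6.

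The knock-in effect was compared between LN and spleen as an interaction of group means. Both tissues came from the same mice, but this fit held no term for the mouse, so its errors and p-values ignore the pairing. The knock-in effect differed for 104 genes (0.955%), more positive in LN for 83 (0.763%) and more negative for 21 (0.193%). More positive includes weaker falls in LN, as for Mir22hg at -0.29 in LN and -3.25 in spleen. By limma 1584 genes passed an unadjusted p under 0.05. The count rested on single libraries: it was 4 without spleen KI mouse 6, 7 without spleen Wt mouse 2, 37 without spleen Wt mouse 1, and 40, 44 and 52 without LN KI mouse 5, LN KI mouse 6 or LN Wt mouse 1. With the mouse as a block it was 596. Sema7a, a membrane semaphorin, was 671 and 774 in Wt and 1077 and 1024 in KI in spleen against 359.6 and 286 in Wt and 2799 and 2223 in KI in LN, a difference of effects of 2.41 ± 0.21 (limma adjusted p = 0.00157). Neil1, a DNA glycosylase of the germinal centre list, rose by 2.30 ± 0.17 in LN and was 0.46 in spleen, a difference of 1.84 ± 0.22 (limma adjusted p = 0.0146). Of the plasma cell genes 6 were among the 104, and Mzb1, an antibody chaperone, was 2.93 ± 0.17 in LN and 1.26 in spleen (difference 1.66 ± 0.20, limma adjusted p = 0.0146). Both tissues moved the same way there, with Wt spleen starting from a higher level, 311 and 372, than Wt LN, 123 and 127. Apol7c fell in LN and was 150.4 and 139 in Wt and 191 and 217 in KI in spleen, which gave -2.82 ± 0.25 (limma adjusted p = 0.00157). Macrophage genes contributed 6 genes to the 104, and their median was 0.38 in spleen against -0.93 in LN; for C1qc the difference of effects was -2.28 ± 0.32 (limma adjusted p = 0.0168). The listed mitosis genes had medians of -0.57 in spleen and 1.27 in LN, with 2 of them among the 104, Kif2c and Prc1. Aspm, Cep55, Kif15 and Spag5, division genes outside that list, were also among the 104, all more positive in LN. For pan T cell genes the medians were -1.05 in spleen and -1.03 in LN, with 0 genes among them.

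**Figure D5:**
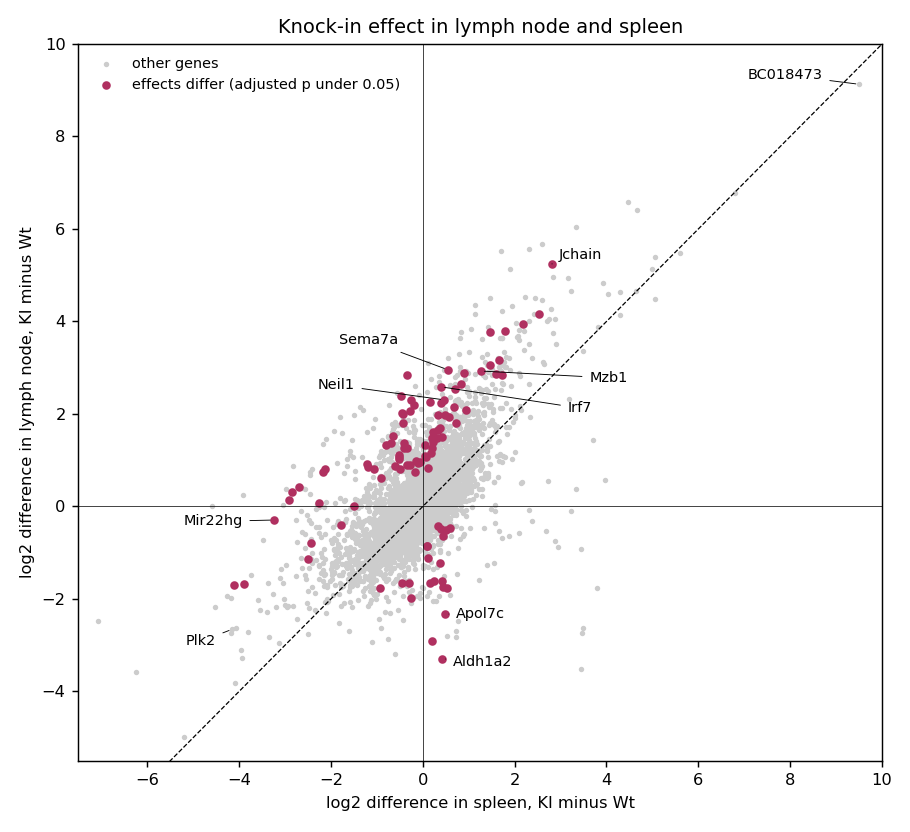
Each point is a gene outside the immunoglobulin loci, with its log2 knock-in effect in spleen (horizontal) and LN (vertical) and a dashed line at equal effects; coloured points are those whose effects differ at an adjusted p under 0.05. Mir22hg lies far left near 0 on the vertical axis, Aldh1a2 and Apol7c lie low, and Plk2, lower in both tissues, is not among the coloured points.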

How the data were processed

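RNA-seq was done on LN and spleen cells. The table deposited by the authors holds a normalised signal per gene and library, reads divided by 1 factor per library, as read from the values: 100% of them came out as whole reads when divided by the step of their library (tolerance 0.05 reads). Build GRCm39 and the tools DESeq2 1.26.0, STAR 2.5, Subread 1.4.6, featureCounts and FastQC 0.11.5 are named in the submitters' processing notes without their roles. The annotation release and the strand setting are not given in the sources used here. Each gene reached at least 109.3 in 1 library, so weak genes were not analysed here.

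The planned edgeR test was for raw counts. Since the table is normalised, limma-trend 3.58.1 (R 4.3.3) was fitted to log2(signal + 1) over the 6 LN libraries with 3 residual degrees of freedom, and over all 11 for the comparison of tissues. Alternatives were pseudocounts of 0.1 and 5, a mean signal filter of 100, other scalings and sets of libraries, weights per genotype, the mouse as a block (statmod 1.5.0), each library left out, and edgeR 4.0.16, DESeq2 1.42.0 and limma-voom on recovered reads. The fit was tested on simulated data, where false calls were more frequent than the threshold states and many small changes were missed. Same-numbered LN and spleen libraries come from 1 mouse. Their deviations from the mean of their group had a correlation, over all genes with immunoglobulin genes included, of 0.403 in Wt and 0.900 in KI. How far the kappa genes, nearly absent in both tissues of KI mouse 6, carry the KI value was not tested. The consensus correlation was 0.0168.

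The members and the 60 gene lists were chosen with earlier results of these data known. Of 1022 listed symbols 914 were in the table, and some genes are in several lists. Genes were named by a rule: Bcl2, the 10 largest increases, decreases, signal gains and signal losses, up to 4 called and 2 uncalled members per list, the 5 smallest p of the other comparisons and the 10 genes that differ most between the KI libraries. Atf6, BC018473, Bcl6, Canx, Cd3e, Clec9a, Col6a4, Eif2ak3, Ell2, Fos, Hspa1a, Hspa1b, Hspa5, Ifit1, Iglv2, Irf9, Isg15, Jmjd6, Mki67, Pf4, Ppbp, Prdm1, Siglech, Slc15a2, St6galnac1, St6galnac2 and Stat2 were named after their values were seen. The promoter windows come from RefSeq, build GRCm38.p6, and matched 8496 genes of the table through 10842 promoters.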

Additional observations from a re-analysis of the deposited data

Results flagged for a closer look

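The knock-in effect differed between LN and spleen, by an interaction at a limma adjusted p under 0.05, for 23 genes named in the text. Values are the LN effect minus the spleen effect in log2 units. Among plasma cell genes it was 2.43 for Jchain, 1.64 for Sdc1, 1.66 for Mzb1, 1.75 for Derl3, 1.15 for Txndc5 and 1.46 for Ell2. The ER sensor Ern1 gave 1.13, the germinal centre genes Neil1 and Hmces 1.84 and 1.28, and the segment Ighv1-81 4.15. Sema7a was at 2.41 and Prg2 at 2.43. Interferon and dendritic cell factors gave 2.19 for Irf7, 1.09 for Tcf4 and 1.01 for Sirpa. The effect was more negative in LN for Apol7c (-2.82), Aldh1a2 (-3.71), Slc40a1 (-3.11), Mfge8 (-0.95) and the complement genes C1qa (-2.18), C1qb (-1.86) and C1qc (-2.28). For Mir22hg, the host gene of a microRNA, it was 2.95: in LN the gene was 67.7 and 79.9 in Wt and 69.1 and 51.7 in KI, and in spleen it was 292 and 296 in Wt and 30.02 and 30.09 in KI (log2 difference -3.25).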

How the results depend on the processing

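The count of genes called between KI and Wt LN, 2215, stayed within 1.5 times under pseudocounts of 0.1 and 5 (2212 and 2226), the signal filter (1957), TMM (2213), edgeR (2159), DESeq2 (2634), limma-voom (2087), a fit of 11 libraries (2833) or of 4 (2681), and genotype weights (2825). DESeq2 kept 99.8% and edgeR 96.5% of the same calls with their direction, both being other tests on the same reads. Scaling without immunoglobulin and haemoglobin genes kept 83.5% and quantile scaling 86.3%. Genes called lower numbered 626, against 991, when scaled without immunoglobulin and haemoglobin genes. Without 1 library the total ranged from 1003 to 2664, higher genes from 632 to 1403, lower genes from 345 to 1261, KI minus Tg from 949 to 1838 and the tissue interaction from 4 to 118; the cause was not tested. With the mouse as a random replicate block over 11 libraries 2834 genes were called, and as a fixed block the interaction gave 596, against 104. Of 100 called genes with a difference in the text 90 kept their call without each LN library, 93 kept it under all other settings and 0 turned sign.
Ifit1, Ifit3b, Isg15, Iglv2 and Tnfaip3 lost their call from the Wt and KI LN libraries alone, so these calls rested on the Tg libraries in the fit. Ifit3b and Bcl2l2 lost it with quantile scaling, and Atf3 with limma-voom. Many genes of the text were picked for large differences, so the share of them that kept a call does not stand for all called genes. The sign turned for Igkc without KI mouse 5 (-2.52, against 4.10 without KI mouse 6). Promoter motif shares had 1 window and no alternative was run.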

Other observations

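Housekeeping pathways stand beside 11.2% of all genes called higher and 9.1% lower. Of 29 proteasome genes 0 were called by limma, edgeR or DESeq2 and 0 had an unadjusted p under 0.05 (median -0.07), and of 27 genes of oxidative phosphorylation 0 were higher and 1 lower (median -0.15; 0 lower without any 1 Wt or KI library). Glycolysis gave 2 higher and 2 lower of 19. Without KI mouse 5, KI mouse 6, Wt mouse 1 or Wt mouse 2, in that order here and below, it gave 0, 1, 0 and 0 higher and 0, 1, 1 and 0 lower, and without either Tg library 5 lower. Cholesterol synthesis gave 0 higher and 2 lower of 20 (1, 1, 1 and 2 lower without 1 library). Of 15 p53 targets 2 were higher and 0 lower, Fas and Trp53inp1; the latter, a stress protein also listed with plasma cells, was 2745 and 3526 in Wt and 6674 and 7844 in KI and rose by 1.22 ± 0.16 (limma adjusted p = 0.00197). Among 15 clock genes 1 was higher and 1 lower (0 higher in each case and 2, 1, 3 and 1 lower without 1 library), the latter being Bhlhe40, a repressor that is also induced by activation, 1417 and 2319 in Wt and 498 and 322 in KI, which fell by 2.18 ± 0.30 (limma adjusted p = 0.00633). Of 26 genes that are recurrently altered in follicular lymphoma 5 were higher and 4 lower (3, 4, 3 and 3 higher and 1, 1, 2 and 2 lower without 1 library). Mef2b, a partner of Bcl6 in that group, was 409.6 and 241 in Wt and 2566 and 1984 in KI and rose by 2.84 ± 0.28 (limma adjusted p = 0.0014).

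The 2 KI libraries also differed from each other outside the immunoglobulin genes, here as values with no test. Col6a4 was 461 in KI mouse 5 and 3.45 in KI mouse 6, with 0 and 2.19 in Wt. The peptide transporter Slc15a2 was 57.1 and 1092 in KI mouse 5 and 6, and 414 and 2.19 in Wt mouse 1 and 2. Hspa1b, a heat shock gene, was 13716 and 1620 in KI mouse 5 and 6. Clec9a, a receptor of cross-presenting dendritic cells, was 63.7 and 282 in KI mouse 5 and 6, with 105 and 99.5 in Wt. Outside the immunoglobulin genes 209 genes were more than 2-fold apart between the KI libraries and 289 between the Wt libraries.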
